A study of Rattus norvegicus with 24 samples.

Results

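The data cover 10 genes of the contractile apparatus of smooth muscle in the lung of Fischer-344 rats that inhaled hexanal, a volatile aldehyde. The genes were chosen by name: Acta2, Actg2, Myh11, Myl9, Tagln, Cnn1, Smtn, Lmod1, Synpo2 and Des. Array probes were tied to them through the RefSeq accession that the array files give for each probe. Of the 10 genes, 9 were matched, with 13 probes, and all 9 were among the 21253 features tested (12497 of them with a gene symbol). Synpo2, which encodes an actin-bundling protein, matched no probe and has no value here.

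Lung RNA of 24 rats was labeled with Cy3 and hybridized to one-colour Agilent arrays, 1 array a rat. The control group breathed filtered clean air, and the other 3 groups breathed 600, 1000 or 1500 ppm hexanal for 4 h a day on 5 days a week. The rats are given as 7 to 8 weeks old, and the study's methods give 7 weeks at purchase, before acclimation and exposure. Each group held 3 males and 3 females. The study's methods give 4 weeks of exposure, whereas the treatment protocol in the labels gives 5 weeks and the same dose numbers in mg per cubic meter; the groups are named here in ppm, as in the labels' titles. These sources name no engineered allele, and RNA of lung tissue was used with no selection of cells.

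Smooth muscle cells line the airways and the blood vessels of the lung and set their calibre. They shorten when myosin, made of heavy chains (Myh11) and regulatory light chains (Myl9), pulls on filaments of the smooth muscle actins (Acta2 and Actg2). Calponin (Cnn1), transgelin (Tagln), smoothelin (Smtn) and leiomodin (Lmod1) bind the actin filaments, and desmin (Des) forms the intermediate filaments that link them to the rest of the cell. The genes of this apparatus are known targets of serum response factor, which acts with myocardin at a short sequence termed the CArG box.

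Because these genes are known to share that element, the bases before the start of Acta2 and Cnn1 are shown. They are the 250 bases before the start given by RefSeq on the rat assembly GRCr8, printed 5′ to 3′ on the strand of the gene. For Acta2 this is chr1:241172504-241172753 on the minus strand, and for Cnn1 it is chr8:28908187-28908436 on the plus strand. Capitals mark a CArG box in which 1 base of the A/T core may be G or C.
Acta2: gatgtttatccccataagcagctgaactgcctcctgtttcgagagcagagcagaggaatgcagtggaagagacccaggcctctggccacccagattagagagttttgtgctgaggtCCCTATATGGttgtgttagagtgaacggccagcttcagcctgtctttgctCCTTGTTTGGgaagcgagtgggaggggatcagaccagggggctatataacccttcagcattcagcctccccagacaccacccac
Cnn1: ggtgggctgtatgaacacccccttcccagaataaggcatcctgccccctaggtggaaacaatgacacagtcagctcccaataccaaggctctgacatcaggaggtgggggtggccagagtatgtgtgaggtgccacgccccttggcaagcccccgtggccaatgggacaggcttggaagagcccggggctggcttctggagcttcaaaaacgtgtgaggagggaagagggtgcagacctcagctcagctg

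Both marked matches in Acta2, CCCTATATGG at 134 and CCTTGTTTGG at 84 bases before the start, hold 1 such base. The CArG box reads the same on both strands by its rule, so 1 search covers both. The window of Actg2 lies inside the span of the gene in the same assembly and is left out. None of the 5 other members with a window (Acta2, Cnn1, Des, Smtn and Synpo2) held the box with an unbroken A/T core in these 250 bases, and 1.5% of the 33469 windows in the table did. With 1 G or C allowed, Acta2 alone among the 5 had a match, as did 8.08% of all windows. A match describes letters and not binding, and the absence of a match says only that these letters are not in this window.

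The labelled tissue was checked against its markers. Sftpc and Ager, which mark alveolar epithelium, and Scgb1a1, a product of airway club cells, were well above background on all 24 arrays. All 13 probes of the smooth muscle genes were also well above background on all 24 arrays, and no value was missing or saturated. The 75th percentile of the signal lay between 1700.86 and 3132.89 and the share of probes well above background between 70.66% and 81.74%. Levels are log2 of the processed signal minus the 75th percentile of the array, so 0 is the level at that percentile. Levels of different genes come from different probes and are not set against each other.

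There were 6 slides with 4 arrays apiece. A slide carried rats of 1 sex, so slide and sex cannot be told apart. For either sex, a slide held control and 600 ppm rats, another 600 and 1000 ppm rats, and the last 1000 and 1500 ppm rats. No slide held both control and 1000 ppm rats or both control and 1500 ppm rats.

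Averaged over the 9 measured genes, transcripts of the contractile apparatus were highest at 1000 ppm, by small amounts. Acta2, Myh11 and Smtn were about level at 1000 and 1500 ppm (log2 differences 0.03, 0.01 and 0.00). Against the control group, all 9 measured genes had a log2 difference above 0 at 1000 ppm, with a median of 0.34 against 0.005 over all 21253 features, of which 51.3% were above 0. The 9 genes were measured in the same rats, and many varied together among rats of a group, as given below. Counts of genes above 0 are therefore not counts of separate observations, here and in the other comparisons. Calponin (Cnn1) rose by 0.60 on the log2 scale and was the 1 gene of the 9 to pass the study's threshold of 1.5-fold with an unadjusted p-value under 0.05. Across all features, 1.29% passed that threshold upward and 0.343% downward at 1000 ppm. Without a threshold on the fold, 5 of the 9 genes (Acta2, Actg2, Tagln, Cnn1 and Des) had an unadjusted limma p-value under 0.05, all upward, as did 5.34% of all features upward. None of the 9 passed an adjusted p-value of 0.05 in limma (lowest 0.515), which 0.0188% of all features did. The study's own kind of unpaired test per gene left 4 of them at an unadjusted p under 0.05 and none after adjustment. In RNA of lung tissue, more cells of a type and more RNA per cell cannot be told apart.

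**Figure D1:**
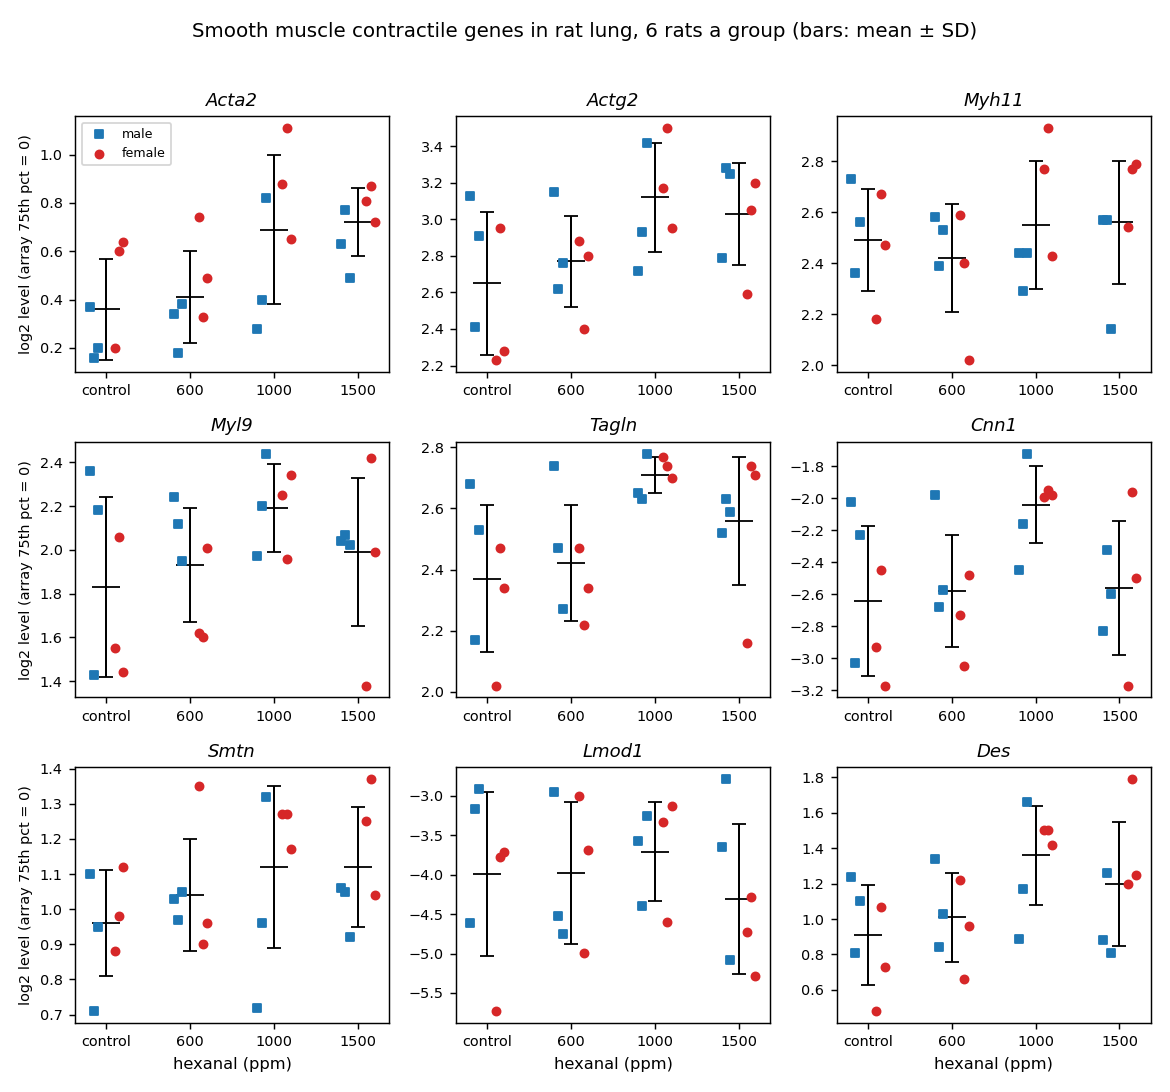
Log2 level (y axis, 0 is the 75th percentile of the array) of 9 smooth muscle contractile genes by hexanal dose (x axis, ppm); blue squares are males, red circles are females, and bars give the mean ± SD of 6 rats. Each y axis has its own range. The groups overlap for every gene, and the Tagln values at 1000 ppm lie close together, between 2.63 and 2.78.

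Among the smooth muscle actins, Acta2 is the actin of vascular and airway smooth muscle and also marks myofibroblasts. In the control rats its log2 level ran from 0.16 to 0.64 with a median of 0.29. At 1000 ppm it ran from 0.28 to 1.11 with a median of 0.73, and at 1500 ppm from 0.49 to 0.87 with a median of 0.75. In both of those groups 4 of 6 rats were above every control rat, and the groups overlapped. The log2 difference from control was 0.33 (SE 0.13; limma p = 0.0157, adjusted p = 0.515, exact permutation p = 0.0606) at 1000 ppm. It was 0.36 (SE 0.13; limma p = 0.0099, adjusted p = 0.579, exact permutation p = 0.013) at 1500 ppm. Exact permutation p-values compare 6 rats with 6, two-sided and unadjusted. At 600 ppm the range was 0.18 to 0.74, and the difference was 0.05 (SE 0.13).

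Actg2 encodes the gamma actin of visceral smooth muscle. Its level ran from 2.23 to 3.13 in the control rats (median 2.66), from 2.72 to 3.50 at 1000 ppm (median 3.06) and from 2.59 to 3.28 at 1500 ppm (median 3.13). In each of these dose groups 3 of 6 rats were above every control rat. The log2 differences were 0.46 (SE 0.17, exact permutation p = 0.0433) at 1000 ppm and 0.37 (SE 0.17, exact permutation p = 0.0887) at 1500 ppm. Its second probe varied with the first among rats (r = 0.99 over 24 rats, deviations from group means) and gave 0.45 and 0.34. Actins have near-identical relatives, and how far their transcripts share these probes was not tested.

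The 2 myosin genes were measured next. Myh11, the smooth muscle myosin heavy chain and the most specific marker of the cell type, ran from 2.18 to 2.73 in the control rats (median 2.51). It ran from 2.29 to 2.93 at 1000 ppm (median 2.44) and from 2.14 to 2.79 at 1500 ppm (median 2.57). All 3 dose groups overlapped the control group. At 600 ppm 1 of 6 rats was below every control rat, and at 1000 ppm 2 were above. At 1500 ppm 2 were above every control rat and 1 was below. The differences of Myh11 from control were 0.06 (95% confidence interval -0.21 to 0.32) at 1000 ppm and 0.07 (-0.20 to 0.33) at 1500 ppm. Its second probe gave -0.16 at 1000 ppm and -0.04 at 1500 ppm, so the probes disagreed in sign, within their error.

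Myl9, the regulatory light chain whose phosphorylation starts contraction, ran from 1.43 to 2.36 in the control rats (median 1.80) and from 1.96 to 2.44 at 1000 ppm (median 2.23). The lower control values, 1.43 to 1.55 in 3 rats, had no counterpart at 1000 ppm, where 1 rat lay above every control rat. The difference was 0.36 (95% confidence interval 0.00 to 0.72, exact permutation p = 0.0952) at 1000 ppm and 0.15 (-0.21 to 0.52) at 1500 ppm.

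Of the proteins that bind actin filaments, calponin restrains the myosin motor on actin. Cnn1 ran from -3.17 to -2.02 in the control rats (median -2.69), from -3.05 to -1.98 at 600 ppm (median -2.63), from -2.45 to -1.72 at 1000 ppm (median -1.99) and from -3.17 to -1.96 at 1500 ppm (median -2.55). At 1000 ppm 4 of 6 rats were above every control rat, and the 1500 ppm rats spanned the control range. Cnn1 rose 1.51-fold at 1000 ppm (log2 0.60, SE 0.21; limma p = 0.0103, adjusted p = 0.515, exact permutation p = 0.0216, two-sided). At 1500 ppm the difference was 0.07 (SE 0.21, exact permutation p = 0.775). With normexp background correction the log2 difference was 0.30 (SE 0.22, limma adjusted p = 0.471) and was not called. The fold at 1000 ppm was close to the threshold. Without control rat 2, 21 or 23 the log2 difference was 0.52, 0.54 or 0.49, without 1000 ppm rat 13 it was 0.53, and without 1000 ppm rat 31, 32 or 33 it was 0.58, in each case under 1.5-fold with an unadjusted limma p under 0.05.

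Tagln, or SM22, is an early marker of the smooth muscle lineage. It ran from 2.02 to 2.68 in the control rats (median 2.41) and from 2.63 to 2.78 at 1000 ppm (median 2.72), where the SD of 6 rats was 0.06 against 0.24 in the control group. At 1000 ppm 4 of 6 rats were above every control rat. The log2 difference was 0.34 (SE 0.11; limma p = 0.00461, adjusted p = 0.515, exact permutation p = 0.00649). At 1500 ppm Tagln ran from 2.16 to 2.74, with a difference of 0.19 (SE 0.11, exact permutation p = 0.175).

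Smtn, found in contractile and not in proliferating smooth muscle, ran from 0.71 to 1.12 in the control rats, from 0.72 to 1.32 at 1000 ppm and from 0.92 to 1.37 at 1500 ppm. Its difference was 0.16 at both doses (SE 0.10), with exact permutation p = 0.186 and 0.121. Its second, dimmer probe gave 0.29, at an unadjusted limma p under 0.05, at 1000 ppm and 0.05 at 1500 ppm.

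Lmod1, which starts actin filaments, had the widest scatter of the 9. Its levels ran from -5.73 to -2.91 in the control rats and from -5.29 to -2.79 at 1500 ppm, and over all 24 rats they spanned 7.71-fold. Its SD within groups was 0.89, above 97.9% of all features, whereas the other 8 genes had SDs between 0.18 and 0.38 and the median of all features was 0.23. Its differences were 0.27 (95% confidence interval -0.74 to 1.29) at 1000 ppm and -0.32 (-1.33 to 0.70) at 1500 ppm. A second probe gave 0.35 and -0.01 and correlated with the first at r = 0.26 over 24 rats, so the 2 probes did not follow the same values.

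Desmin is shared by smooth, heart and skeletal muscle. Des ran from 0.48 to 1.24 in the control rats (median 0.94), from 0.66 to 1.34 at 600 ppm (median 1.00), from 0.89 to 1.66 at 1000 ppm (median 1.46) and from 0.81 to 1.79 at 1500 ppm (median 1.23). At 1000 ppm 4 of 6 rats were above every control rat, and at 1500 ppm 3 of 6 were. The log2 difference was 0.45 (SE 0.16; limma p = 0.0113, adjusted p = 0.515, exact permutation p = 0.0195) at 1000 ppm and 0.29 (SE 0.16, exact permutation p = 0.143) at 1500 ppm.

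**Figure D2:**
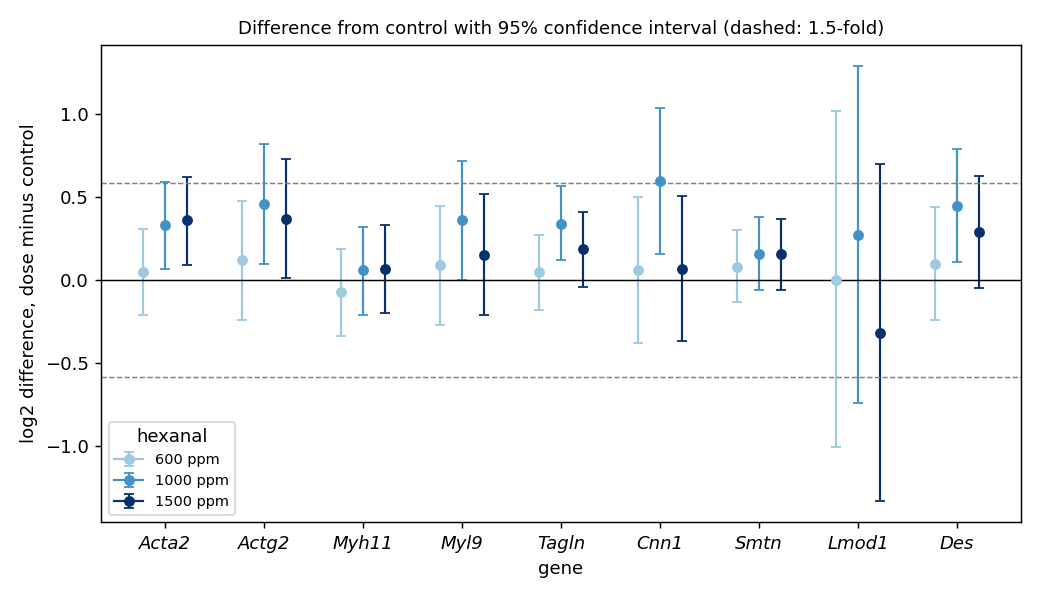
Log2 difference from control (y axis) of 9 smooth muscle contractile genes (x axis) at 600, 1000 and 1500 ppm hexanal, from light to dark blue; points are limma estimates over 24 rats and bars are 95% confidence intervals. The 600 ppm points lie between -0.07 and 0.12, and Cnn1 at 1000 ppm, at 0.60, is the 1 point past the dashed 1.5-fold line.

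At 600 ppm no gene of the 9 passed the threshold or had an unadjusted p under 0.05, by limma or by the unpaired test per gene. The differences ran from -0.07 for Myh11 to 0.12 for Actg2, with a median of 0.06, and 8 of the 9 were above 0, as were 49.6% of all features. Of all features, 0.16% were called higher and 0.456% lower at this dose, and 1.87% were upward at an unadjusted p under 0.05. With the slide as a fixed block all 9 differences were above 0, from 0.10 to 1.01 with a median of 0.24, and none was called. At 1500 ppm no gene of the 9 was called (0.701% of all features were called higher and 0.522% lower). Acta2 and Actg2 were the 2 with an unadjusted limma p under 0.05, where 3.91% of all features were upward at that level. The unpaired test per gene left 1, and 0.00471% of all features passed the adjusted p. Of the 9, 8 were above 0, with a median of 0.16, against 53.8% of all features with a median of 0.013. These comparisons share the control rats and are not independent of each other. Nor are the 9 genes separate observations, since many varied together among rats. In no comparison of a dose with control did the groups of any of the 9 genes lie fully apart, which 0.0941%, 0.259% and 0.311% of all features did upward at 600, 1000 and 1500 ppm.

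The dose groups were also set against each other, with the control rats entering only through the shared estimate of the spread. From 600 to 1000 ppm all 9 differences were above 0, as were 52.4% of all features. An unadjusted limma p under 0.05 was found for 4 (Acta2, Tagln, Cnn1 and Des), and upward for 2.24% of all features. None of the 9 was called, and 0.569% of all features were called higher. The largest was that of Cnn1, 0.54 (SE 0.21, exact permutation p = 0.0152, limma adjusted p = 1). From 600 to 1500 ppm Acta2 differed by 0.31 (SE 0.13, exact permutation p = 0.0152), the 1 of 9 with an unadjusted limma p under 0.05 against 4.78% of all features upward. No gene of the 9 was called, and 0.805% of all features were called higher. From 1000 to 1500 ppm Cnn1 was lower by 0.52 on the log2 scale (log2 difference -0.52, SE 0.21, exact permutation p = 0.026, limma adjusted p = 0.899), under the 1.5-fold threshold. At 1500 ppm 4 of 6 rats were below every 1000 ppm rat. It was the 1 gene of the 9 with an unadjusted limma p under 0.05, where 2.19% of all features were downward and 0.263% were called lower. With the slide as a fixed block this difference was -0.71 (SE 0.29, limma adjusted p = 0.329) and was called, as were 1.4% of all features downward in that fit. For Acta2 the 1000 and 1500 ppm groups did not differ beyond their spread (0.03, 95% confidence interval -0.24 to 0.29). Ordered by their means, Cnn1 levels placed 1000 ppm first, with 600 and 1500 ppm within 0.07 of control, and Acta2 levels placed 1500 and 1000 ppm together above 600 ppm and control.

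Over the 4 doses, a slope was fitted per 1000 ppm. Acta2 had 0.27 on the log2 scale (SE 0.08, limma adjusted p = 0.386), Actg2 0.29 (SE 0.11; adjusted p = 0.496), Des 0.25 (SE 0.11; adjusted p = 0.567) and Tagln 0.17 (SE 0.08; adjusted p = 0.567). These 4 of 9 had an unadjusted limma p under 0.05, as did 4.75% of all features upward, and none passed the adjusted p, which 0.0141% of all features did. Lmod1 had the 1 slope below 0, at -0.14 (SE 0.31). With the slide as a fixed block none of the 9 slopes had a p under 0.05, and without control rat 2, 21 or 23 or 1500 ppm rat 37 the number was 2.

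At 1000 ppm the differences from control were higher in females than in males for each of the 9 genes, and the test of the difference between the sexes passed for none. For Cnn1 they were 0.88 in females and 0.31 in males, for Des 0.71 and 0.19, for Actg2 0.72 and 0.21, and for Tagln 0.46 and 0.23. Des at 1500 ppm, with 0.65 in females and -0.07 in males, had the lowest p of the 9 genes over the 3 doses, for a difference of 0.72 (SE 0.30, limma adjusted p = 0.185). At that dose 5.03% of all features passed the adjusted p for a sex difference and none of the 9 genes did. At 600 and 1000 ppm 0% of all features did. Each sex had 3 rats a group on its own slides.

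Within slides that held both groups, the step from 600 to 1000 ppm (2 rats against 2) was 0.32 for Cnn1 in males and 0.80 in females. For Des it was 0.10 and 0.69, and for Tagln 0.27 and 0.47. For Acta2 it was 0.06 and 0.59, for Actg2 0.14 and 0.73, for Myl9 0.04 and 0.30, and for Lmod1 0.65 and 0.38. Myh11 and Smtn were below 0 in males, at -0.09 and -0.17, and above 0 in females, at 0.64 and 0.34. The step from control to 600 ppm (1 rat against 3) was 0.45 and 0.13 for Cnn1 and 0.29 and 0.46 for Des. For Actg2 it was 0.34 and 0.39, for Tagln 0.28 and 0.19, for Acta2 0.10 and 0.26, and for Lmod1 0.61 and 1.41. For Smtn it was 0.11 and 0.35, for Myh11 0.04 and 0.16, and for Myl9 0.25 and -0.06. From 1000 to 1500 ppm (3 rats against 1) the step was -0.86 and -0.56 for Cnn1 and -0.68 and -0.01 for Des. For Tagln it was -0.21 and -0.16, for Myl9 -0.40 and -0.41, for Actg2 -0.31 and -0.01, and for Lmod1 -0.59 and -1.64. The sexes differed in sign for Acta2 (-0.19 and 0.15), Myh11 (-0.02 and 0.27) and Smtn (-0.31 and 0.05). With the slide as a fixed block, which ties control to 1000 ppm through the 600 ppm rats, the 1000 ppm differences were 0.84 for Cnn1 (SE 0.38), 0.80 for Actg2 (SE 0.31), 0.77 for Des (SE 0.28) and 0.61 for Tagln (SE 0.20), and all 4 were called at an adjusted limma p of 0.999. In that fit 0.908% of all features were called higher and 0.63% lower.

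Among rats of the same group, many of the 9 genes varied together, and Lmod1 did so with none by the test. Deviations from the group means were correlated for all 36 pairs over 24 rats, and 35 of the r values were above 0, with a median of 0.42. The test permuted rats within groups, and 17 pairs had a Benjamini-Hochberg adjusted permutation p under 0.05 for Pearson's r and 18 for Spearman's rho, over the 36 pairs. Cnn1 and Myl9 had r = 0.90 (rho = 0.88; permutation p = 1e-05 for both, the smallest that was allowed, adjusted p = 0.00012). Cnn1 and Actg2 had r = 0.84 (rho = 0.85; permutation p = 2e-05, adjusted p = 0.00018). Acta2 and Smtn had r = 0.83 (rho = 0.82; permutation p = 1e-05, adjusted p = 0.00012). Without the 2 rats farthest from the median these values were 0.86, 0.80 and 0.80. Within males and within females, deviations being taken from the mean of each dose group of that sex, they were 0.88 and 0.93, 0.96 and 0.72, and 0.90 and 0.75. A slide held 4 rats, too few for a value of its own. The array of 1500 ppm rat 36 had the lowest 75th percentile of signal (1700.86). That rat was the lowest of its group for Tagln, Cnn1, Myl9 and Actg2, and not for Acta2, Myh11, Des, Lmod1 or Smtn. How far the brightness of the arrays enters these correlations was not tested, and pairs of other features were not computed as a background.

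The pairs fell into a denser set and looser members. Tagln, Cnn1, Myl9 and Actg2 had r between 0.67 and 0.90 with each other, and Des had 0.56 to 0.78 with these 4. Acta2 went with Smtn, Des (0.57) and Myh11 (0.56) and had -0.06 with Myl9 and 0.19 with Tagln. No pair with Lmod1 passed, the highest being 0.37. Each gene set against the mean of the other 8 had r from 0.30 for Lmod1 and 0.39 for Acta2 to 0.79 for Tagln and 0.82 for Des, as a description. These means were not scaled by gene, so Lmod1, with its SD of 0.89 within groups, weighs most where it enters.

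**Figure D3:**
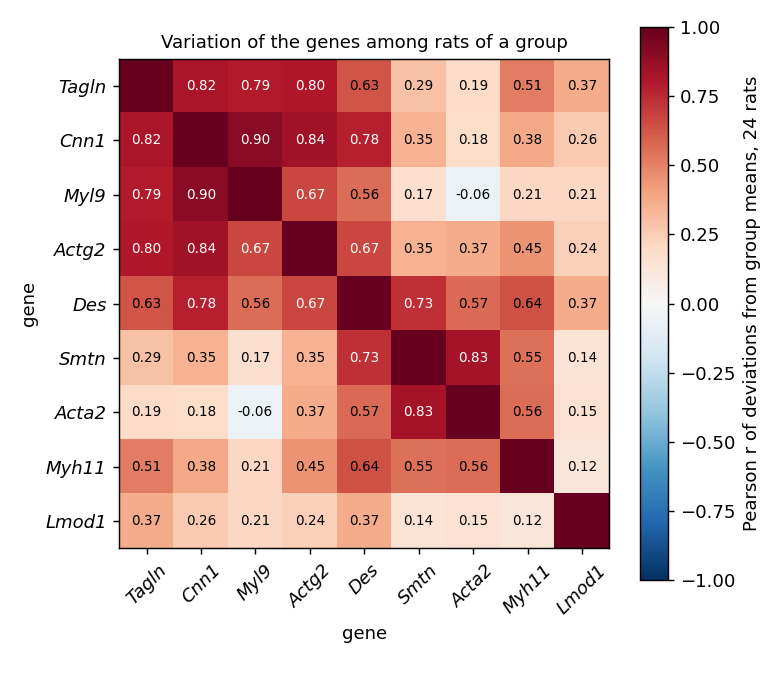
Pearson r between the deviations from group means of 9 smooth muscle contractile genes over 24 rats; rows and columns are genes, red is positive and blue negative. Tagln, Cnn1, Myl9 and Actg2 form the block of highest values, up to 0.90, and Lmod1 has no value above 0.37.

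By the same measure, the genes with a symbol outside the 10 that were most like the mean deviation of the 9 were ranked among 12387 genes over 24 rats. This mean was also not scaled by gene, so Lmod1, whose probes followed different values, weighs most in it. They were Aspn, an extracellular matrix proteoglycan (r = 0.80), Dsc2, a desmosomal cadherin (0.74), Tpm2, the beta tropomyosin of actin filaments (0.72), Cyp27a1, a sterol hydroxylase (0.72), Ecrg4, a secreted peptide precursor (0.70), and Fhl2, a LIM domain protein (0.70). At 1000 ppm their log2 differences from control were 0.38, -0.06, 0.18, 0.02, 0.29 and 0.21.

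Heart muscle genes differed widely among the rats, and over all 24 rats no member passed the adjusted test of correlation with them. Of 15 listed heart muscle genes 13 were tested, and all 13 were above control at each dose, with medians of 0.89, 2.40 and 0.64 at 600, 1000 and 1500 ppm. Of all features 49.6%, 51.3% and 53.8% were above control at these doses. The 13 genes were measured in the same rats, so they are not separate observations. At 1000 ppm 8 of them were called higher, beside 1.29% of all features, and none passed an adjusted limma p of 0.05 at any dose. The summed level of the 13, relative to the 75th percentile of the array, ran from 3.86 to 41.4 in the control rats, from 5.48 to 69 at 600 ppm, from 9.39 to 147 at 1000 ppm and from 3.87 to 149 at 1500 ppm. Myh6, a myosin heavy chain of heart muscle, was above background on 20 of 24 arrays and ran from -8.30 to 3.46 in the control rats and from -0.39 to 5.36 at 1000 ppm. Myl7 and Tnnt2 were above background on all 24 arrays and Nppa on 4. Of 10 listed airway epithelium genes 8 were tested, and 6 of the 8 were above control at 1000 ppm with a median of 0.51. At that dose 2 were called higher and none passed the adjusted p. Their summed level ran from 147 to 235 in the control rats and from 194 to 267 at 1000 ppm. Foxj1, a regulator of ciliated cells, ran from 0.11 to 1.23 in the control rats and from 0.86 to 1.40 at 1000 ppm.

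Over 24 rats, Des and Cnn1 had the highest correlations with the mean log2 level of the heart muscle genes, r = 0.52 (rho = 0.44) and 0.51 (rho = 0.47). The permutation p was 0.0193 and 0.0217, and neither passed after adjustment over the 9 genes (both 0.0976). Without the 2 rats farthest from the median they were 0.41 and 0.66. Acta2 and Myh11 had -0.06 and -0.03. With the airway genes, a comparison chosen after the values were seen, Des had r = 0.45 (permutation p = 0.0454, adjusted p = 0.409).

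The same correlations were computed within each sex, also after the values were seen. In the 12 males all 9 genes had r above 0 with the heart muscle genes, between 0.33 and 0.91, and 6 of 9 had an adjusted exact p under 0.05 over the 36 values of this kind. Cnn1 had r = 0.91 (rho = 0.90; exact p = 0.000772, the smallest possible, adjusted p = 0.0139), Des 0.90 (rho = 0.88; exact p = 0.00154, adjusted p = 0.0185) and Actg2 0.86 (rho = 0.89; exact p = 0.00386, adjusted p = 0.0278). With the airway genes the males had r between 0.35 and 0.95, again 6 of 9 past the adjustment, with Des at 0.95 (adjusted exact p = 0.0139). Spearman's rho passed for 3 and 2 of the 9. In the 12 females r with the heart muscle genes ran from -0.71 for Myh11 (adjusted exact p = 0.047) to 0.30 for Myl9, and with the airway genes from -0.40 to 0.20. For Myh11 Spearman's rho was -0.69 (adjusted exact p = 0.0983), and r without the 2 rats farthest from the median was -0.58. Without the 2 rats farthest from the median the males kept r between 0.45 and 0.91 with the heart muscle genes and between 0.49 and 0.97 with the airway genes. The difference between the sexes in these correlations was not tested, and each sex lay on its own slides.

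**Figure D4:**
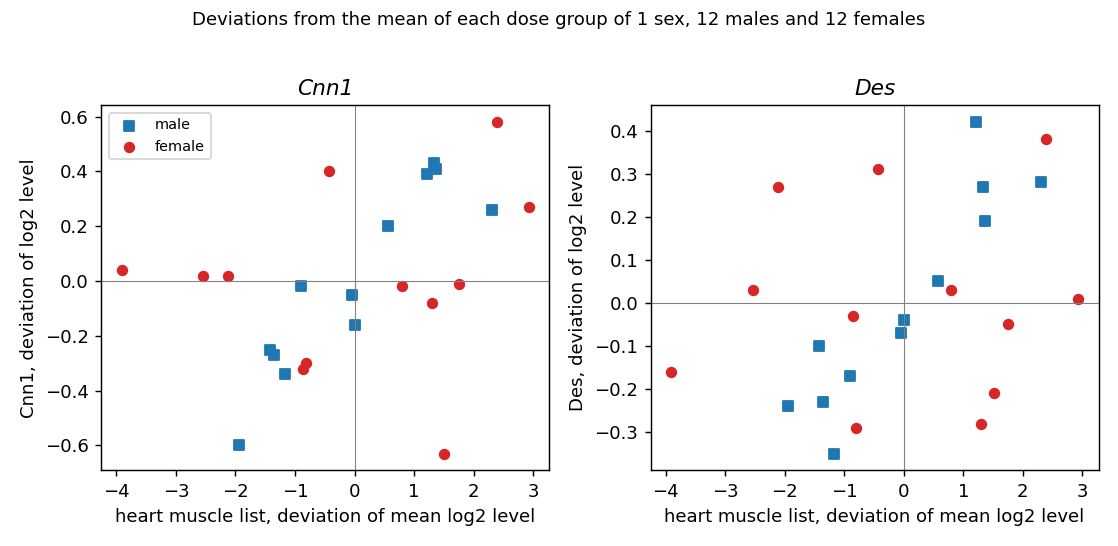
Deviation of the log2 level of Cnn1 (left) and Des (right) on the y axis against the deviation of the mean log2 level of 13 heart muscle genes on the x axis, each from the mean of its dose group within a sex; blue squares are 12 males and red circles 12 females. The males rise from lower left to upper right (r = 0.91 and 0.90), and the females show no such line (0.16 and 0.06).

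With the mean level of the heart muscle genes as a covariate, an alternative chosen after seeing the data, the 1000 ppm difference of Cnn1 was 0.36 (SE 0.21, limma adjusted p = 0.718), under the threshold. Those of Des and Myl9 were 0.27 (SE 0.16) and 0.19 (SE 0.18). Acta2 (0.35, SE 0.14), Tagln (0.31, SE 0.12) and Actg2 (0.41, SE 0.19) were 0.33, 0.34 and 0.46 without it, and with it they had an unadjusted limma p under 0.05. With the airway genes as the covariate Cnn1 was 0.45 (SE 0.23, limma adjusted p = 0.835), Des 0.29 (SE 0.17) and Acta2 0.27 (SE 0.14), whereas Tagln (0.35, SE 0.12) and Actg2 (0.45, SE 0.20) had an unadjusted limma p under 0.05. At 1500 ppm Acta2 was 0.36 and 0.33 with these covariates (SE 0.13). Each fit used 1 slope for both sexes. Cnn1, however, had r = 0.91 with the heart muscle genes in males and 0.16 in females, and 0.90 and 0.03 with the airway genes. The 1000 ppm difference of Cnn1 without a covariate was 0.31 in males and 0.88 in females. The part of the heart muscle or airway genes in these differences was not tested.

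Other cell types were measured beside them. Of 8 skeletal muscle genes tested, 8 were above control at 1000 ppm with a median of 0.37 and 3 called, beside 1.29% of all features called higher. Pericyte genes, which share contractile genes with smooth muscle, had medians of -0.02, -0.06 and -0.09 with none of 8 called. Fibroblast genes had medians of 0.04, 0.01 and -0.01, alveolar genes 0.06, -0.01 and -0.07, and endothelial genes -0.07, -0.19 and -0.15, with none called of 9, 9 and 8. Of 4 mesothelial genes none was called (medians 0.29, 0.23 and 0.38), and of 4 cartilage genes 1 was called, at 600 ppm (medians 0.20, 0.27 and 0.13). Of all features 0.16% were called higher at 600 ppm. No gene of these lists passed an adjusted limma p of 0.05 against control at any dose. Myh4 was above background on 9 arrays and Acan on 8. The part of these cell types in the levels of the smooth muscle genes was not tested.

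A wider list of 53 genes of the smooth muscle cell, its kinases, receptors, channels and transcription factors, had 46 genes tested. Its medians were -0.03, -0.05 and 0.07 at 600, 1000 and 1500 ppm, and 20, 13 and 33 of the 46 were above control, where 49.6%, 51.3% and 53.8% of all features were. 1 gene was called higher at 1000 ppm and 1 lower at 1500 ppm, beside 1.29% and 0.522% of all features, and none passed an adjusted p of 0.05. The genes described next are from the 3 highest and 3 lowest at each dose. They were picked by these same differences, so their unadjusted p-values and counts of rats beyond the control range do not allow for that choice.

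Among receptors and channels, Chrm2, the M2 muscarinic receptor of airway smooth muscle, nerves and heart, rose at 1000 ppm. It ran from -5.03 to -4.14 in the control rats (median -4.64) and from -4.31 to -3.10 at 1000 ppm (median -3.99), with 4 of 6 rats above every control rat. The log2 difference was 0.81 (SE 0.30, exact permutation p = 0.00649, limma adjusted p = 0.515). Kcnma1, the pore of the large-conductance potassium channel that relaxes smooth muscle, had 0.58, 0.66 and 0.62 at the 3 doses (SE 0.32), with limma adjusted p-values between 0.559 and 0.997, and was not called. Its levels ran from -2.56 to -2.10 in the control rats and from -2.58 to -0.57 at 1000 ppm. Kcnmb1, the beta subunit of that channel, had 0.38 (SE 0.18) at 1000 ppm. Adra1d, an alpha1 adrenergic receptor, had -0.70 (SE 0.36) at 600 ppm and -0.16 at 1500 ppm.

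In the nitric oxide and cyclic GMP pathway that relaxes smooth muscle, Pde5a, which breaks down cyclic GMP, had -0.30 (SE 0.12, exact permutation p = 0.00866, limma adjusted p = 0.515) at 1000 ppm, where 5 of 6 rats were below every control rat. At 1500 ppm its level was 1.03 ± 0.20 (SD, n = 6) against 1.02 ± 0.14 in the control group. Prkg1, the cyclic GMP-dependent kinase, and Gucy1a1, a subunit of the enzyme that makes cyclic GMP, had -0.20 and 0.17 at 600 ppm (SE 0.14 and 0.12).

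Klf4, a transcription factor known to repress contractile genes in cultured smooth muscle and also made by endothelium and epithelium, was the lowest or among the 3 lowest of the list at each dose. Its level ran from 2.32 to 3.23 in the control rats (median 2.73), from 2.12 to 2.96 at 600 ppm (median 2.56), from 1.96 to 2.62 at 1000 ppm (median 2.34) and from 1.62 to 2.22 at 1500 ppm (median 2.10). At 1500 ppm all 6 rats were below every control rat, as were those of 0.169% of all features. Klf4 fell by 0.71 at 1500 ppm (log2 difference -0.71, SE 0.16; limma p = 0.000141, adjusted p = 0.157, exact permutation p = 0.00216, the smallest possible). At 1000 ppm it had -0.45 (SE 0.16, exact permutation p = 0.0238), under the 1.5-fold threshold. Nexn, an actin-binding protein of heart and smooth muscle, had 0.36 at 1500 ppm (SE 0.09, exact permutation p = 0.00866, limma adjusted p = 0.256), with levels of 1.01 to 1.40 against a control median of 0.88 and 4 of 6 rats above every control rat. At 1000 ppm its mean was 0.85 ± 0.13 against 0.87 ± 0.16 (SD, n = 6). Pdlim3, a LIM protein of the muscle Z-line, had 0.33 at 1500 ppm (SE 0.24).

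The partners that switch the contractile genes on, picked here for their role, showed small differences. For Srf, serum response factor, the control rats averaged 2.68 ± 0.16, and the 600, 1000 and 1500 ppm rats 2.61 ± 0.08, 2.64 ± 0.06 and 2.82 ± 0.21 (SD, n = 6). For Myocd, myocardin, the means in the same order were -3.52 ± 0.15, -3.39 ± 0.29, -3.45 ± 0.12 and -3.41 ± 0.14 (SD, n = 6). Neither had an unadjusted limma p under 0.05 at any dose against control.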

How the data were processed

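The authors deposited scanner intensities of one-colour Agilent arrays read with Feature Extraction 11.5.1.1, in which background had been subtracted and each array detrended; no scaling between arrays had been applied. A series table gave nearly the same intensities. Control and outlier spots were dropped and spots of a probe averaged (30367 probes; 60.4% were named by accession through RefSeq GRCr8). Each array's 75th percentile was subtracted on the log2 scale. A probe was tested if well above background on 5 of 6 arrays in some group, with the brightest probe per gene. limma 3.58.1 (R 4.3.3; lmFit and eBayes, 24 arrays, no covariate) gave p-values, adjusted by Benjamini-Hochberg over all features. Single genes also had exact permutation tests (924 splits; smallest p 0.00216). Scripts were tested on simulated data. The study's methods describe the caging in general, and no source gives the cage or litter of each rat. The p-values therefore reflect the spread between these rats. The members, lists and the rule for named genes (all members, the 3 highest and 3 lowest of the wider list, the 6 most alike genes, list markers) were chosen with earlier results of these data known. Srf, Myocd and Foxj1 were named for their role. 1 gene that the rule picks is not reported here. Alternatives covered background correction, scaling, filters, probes, sex, slide, weights, each rat left out and, added after seeing the data, dim arrays and list covariates.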

Additional observations from a re-analysis of the deposited data

Results flagged for a closer look

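Of 36 sets of 6 rats (9 genes in 4 groups), 2 held a rat whose gap to its nearest neighbour was large for the range of the set, and chance alone gives about 1 in 20. Myh11 was 2.02 in 600 ppm rat 28, where the nearest of the other rats had 2.39. Smtn was 1.35 in 600 ppm rat 26, where the nearest had 1.05. Neither gene was called at 600 ppm with or without that rat.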

How the results depend on the processing

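No paired analysis was possible because the groups compared share no replicate numbers, and slides served as blocks instead. The count of contractile genes called at 1000 ppm, 1 (Cnn1), was 0 with normexp background correction, 0 with an adjusted p under 0.05 required, and 0 with the heart muscle or the airway genes as a covariate. It was 4 with the slide as a fixed block, where 0.908% of all features were called higher and 0.63% lower, and it ran from 0 to 1 when single rats were left out. With the slide block 1 gene was called between 1500 and 1000 ppm (1.4% of all features lower), and 0 slopes on dose had p under 0.05. That number of slopes ran from 2 to 5 when single rats were left out. The cause was not tested.

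Signs turned for small differences. With normexp Lmod1 was -0.17 at 600 ppm and -0.16 at 1000 ppm, Myh11 0.01 and Cnn1 -0.06 at 600 ppm, and Cnn1 -0.05 at 1500 ppm. With the slide block Myh11 was 0.10 at 600 ppm, and Lmod1 and Myl9 were 0.41 and -0.13 at 1500 ppm. Lmod1 at 1500 ppm was 0.42 with array weights and 0.03 without the 3 dimmest arrays. Myh11 at 1000 ppm was -0.05 with the mean of its probes. At 600 ppm the heart covariate gave Lmod1 -0.08 and Cnn1 -0.04, and the airway covariate gave Lmod1 -0.01, Des 0 and Cnn1 -0.03. Leaving out single rats gave, at 600 ppm, Lmod1 -0.35 to 0.22, Acta2 and Tagln -0.02 to 0.11, Myh11 -0.14 to 0 and Cnn1 -0.06 to 0.18. At 1000 ppm it gave Lmod1 -0.07 to 0.49 and Myh11 -0.02 to 0.11, and at 1500 ppm Cnn1 -0.05 to 0.20. The number of arrays limits the precision.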
